A study of Mus musculus with 8 samples.

Results

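Genes that mark endothelial cells, and the secreted factors that direct vessel growth, were read in EGFP-positive cells of the vertebral column of mouse embryos at E12.5. The set held 39 genes out of 19057 with an annotated probe on the array. They were chosen by name for their role, but with earlier results of these data known. They comprised 12 receptors, 11 genes of junctions, surface and matrix, 8 transcription factors, 2 lymphatic genes and 6 secreted growth factors. The wildtype group (4 arrays) came from embryos of the mixed strain C57BL/6J;129 that kept an intact Bapx1 gene, with EGFP placed behind it by means of an internal ribosome entry site. In the null group (4 arrays), of the same strain and stage, EGFP took the place of the start of the Bapx1 coding sequence on both alleles. Both groups therefore carried a reporter under the Bapx1 promoter, and only EGFP-positive cells were collected by flow cytometry. The methods describe the wildtype line as carrying 1 tagged allele and the null as homozygous, so reporter dose and the mode of EGFP translation moved together with genotype and cannot be told apart from it. Whether an array held 1 embryo or several pooled embryos is not stated in the labels or methods.

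Endothelial cells line every vessel, and they are recognised by adhesion proteins of their junctions (VE-cadherin, PECAM-1, claudin-5), by receptors for secreted growth factors (the VEGF receptors, and TIE1 and TIE2 of the angiopoietin system) and by transcription factors of the ETS and SOXF families. VEGF and angiopoietin ligands are made largely by the surrounding tissue, cartilage and its precursors included, and act on receptors that the endothelial cell carries. Cartilage itself is avascular, and vessels run between the forming vertebrae and enter the bone only later. Bapx1 (Nkx3-2) is a homeobox gene whose product acts in the sclerotome and in early cartilage.

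Levels are given as log2 of background-corrected, quantile-normalized intensity. Values of about 4.3 to 5 were at the background, since the weakest signal that counted as detected (detection p under 0.05) lay between 4.80 and 5.04 depending on the array. The share of all probes detected was 41% to 45.8% per array and precision was limited by the small number of arrays. Each gene is given by its brightest probe among those detected on at least 4 of the 8 arrays. A gene was called when limma gave it an adjusted p under 0.05 over all 19965 probes tested. Wildtype replicate 2 and null replicate 1 stood apart from their groups, with a mean correlation of 0.969 and 0.972 with the other arrays of the group, where the remaining arrays had 0.979 to 0.985. They were not alike in this. Null replicate 1 correlated more closely with the wildtype arrays (0.9755) than with its own group, as no other array did. Wildtype replicate 2 had 0.9562 with the null arrays. Genotype could be checked through Nkx3-2 itself only in part, since it was detected on 0 of 4 wildtype and 4 of 4 null arrays and the position of its probes on the altered alleles is not known from the labels or methods.

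Binding sites of ETS factors are a known feature of endothelial promoters. RefSeq promoters (build GRCm38.p6, 250 bases before to 50 after each start) were at hand for 21 of the 39 genes, with 28 windows. The ETS letters CAGGAAG or CCGGAAG, searched on both strands, occurred in 7 of the 23 windows of endothelial marker genes (30.4%) and in 20.9% of all 32851 windows. The letters TGAGTG or TAAGTG, which the Bapx1 protein is known to bind, occurred in 4 of those 23 windows (17.4%) and in 23.9% of all windows. The stretches below show the match, in capitals, in genes whose levels are described here, each read 5′ to 3′ on the strand of the gene. They lie at chr3:137340893-137340922 (Emcn), chr9:37401911-37401940 (Robo4), chr2:84425315-84425344 (Calcrl) and chr1:194938668-194938697 (Cd34) for ETS, and the Bapx1 letters at chr4:94739039-94739068 (Tek), chr2:84425344-84425373 (Calcrl), chr1:194938677-194938706 (Cd34) and chr2:26586412-26586441 (Egfl7). In Emcn and Cd34 the ETS letters, and in Cd34 and Egfl7 the Bapx1 letters, stand on the other strand and so appear reversed and complemented. Further ETS matches, not shown, lay in windows of Egfl7, Erg and Apln.
Emcn, ETS: aagaagggtctCTTCCTGttcaaatcccat
Robo4, ETS: tgagggccaggCAGGAAGcatccgtttcct
Calcrl, ETS: gggtgatgtaaCAGGAAGctgtgatgtttc
Cd34, ETS: gtacacagtggCTTCCTGccacacttaaaa
Tek, Bapx1: caaaccctgTGAGTGaaaacaaaaacagga
Calcrl, Bapx1: gtaacctaacacTAAGTGcaggcggggcgg
Cd34, Bapx1: ggcttcctgccaCACTTAaaacttgaaaat
Egfl7, Bapx1: ctcgcaaggcggCACTTAgaggctgggttg
A match of letters shows no binding. Among these 6 genes both those whose null arrays all lay above the wildtype arrays (Emcn, Robo4, Tek) and those with overlapping groups (Calcrl, Cd34, Egfl7) held one, and of the 4 genes with the Bapx1 letters 3 had overlapping groups.

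Of the 39 genes, 38 had a probe that could be matched to the intensity values. S1pr1, a receptor for sphingosine 1-phosphate, could not be matched and was not analysed here. A passing probe was found for 28 genes, of which 23 were endothelial markers and 5 secreted factors. Null levels stood above wildtype levels without overlap for Tek, Cdh5, Emcn, Robo4, Aplnr, Pecam1 and Sox18, and below them for Fli1, while the secreted factors had differences of -0.11 to 0.39 with overlapping groups. Tek was called higher in the null, 0 genes of the set were called lower and 27 were not called. For comparison, 0.493% of the 10951 genes tested were called higher and 0.447% lower. Every null array lay above every wildtype array for 7 of the 23 passing endothelial markers and below for 1, where 5.61% of all genes tested lay above and 6.4% below. Among the 7, Pecam1 was detected on 1 wildtype array and Aplnr on 2, so both met the filter through their null arrays. The other Pecam1 probe, detected on 3 wildtype and 3 null arrays, had overlapping groups. In the wildtype it was the brighter of the 2, with a mean of 4.98 against 4.79. At an unadjusted p under 0.05 (limma) stood 10 of the 23 markers, 9 of them higher and 1 lower in the null, and 23.1% of all genes tested. The 9 include Pecam1, Aplnr and also Cldn5, which was detected on 1 wildtype array and so met the filter through its null arrays. The median difference of null minus wildtype was 0.39 over these 23 markers, 0.17 over the 5 secreted factors and -0.03 over all genes tested. Single arrays weighed on these values. Without wildtype replicate 2 the medians were 0.19 and -0.07, without null replicate 1 the marker median was 0.22, and the factor median was 0.34 without wildtype replicate 1, 0.36 without wildtype replicate 4 and 0.11 without null replicate 4. Without null replicate 1, 7 of the 28 genes were called, with Tek, Aplnr, Ramp2, Pecam1, Cdh5 and Emcn higher and Ets1 lower, and without any other single array 0 were called. In sorted cells read as a bulk sample, more or fewer cells of a type and more or less RNA per cell cannot be told apart.

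**Figure D1:**
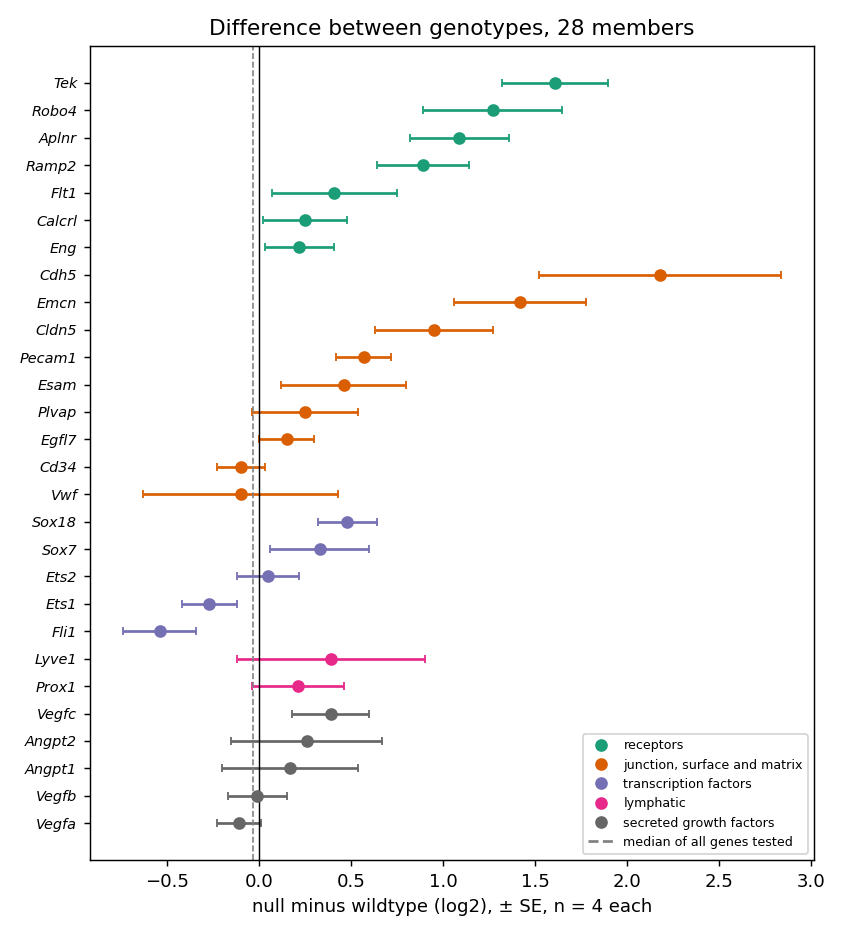
Difference between null and wildtype (x axis, log2, bars give the SE, n = 4 each) for the 28 genes with a passing probe, ordered within each role. Receptors and junction genes reach 1.61 (Tek) and 2.18 (Cdh5), the transcription factors run from -0.54 (Fli1) to 0.48 (Sox18), and the secreted factors stay between -0.11 and 0.39; the dashed line is the median of all genes tested.

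The receptors gave the one called gene. Tek encodes TIE2, the receptor for the angiopoietins, and read 6.17, 5.63, 6.35 and 6.16 on wildtype replicates 1 to 4 and 6.90, 8.33, 7.46 and 8.05 on null replicates 1 to 4. All 4 null arrays lay above all 4 wildtype arrays, with replicates 2 and 4 the highest. The mean rose from 6.08 ± 0.31 to 7.69 ± 0.64 (SD, n = 4 each), a difference of 1.61 ± 0.29 (SE) or 3.05-fold (limma, adjusted p = 0.0435). A two-sided exact permutation test over the 70 splits of the arrays gave p = 0.0286, the smallest this design can give. The call held without null replicate 1 (adjusted p = 0.00403) and ended without any other single array, at adjusted p between 0.0728 and 0.143, while the difference stayed between 1.39 and 1.87. By adjusted p the call also ended with a floor of 16 in place of normexp (0.0688), with no filter (0.101) or a 20th percentile filter (0.0538), with scaling by the median absolute deviation (0.177), in the authors' log2 values (0.184), with a replicate block (0.109) and with a one-way analysis of variance over the same values (0.157).

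Robo4, a receptor that stabilises vessels, read 4.95, 4.41, 6.14 and 5.93 on the wildtype and 7.16, 6.87, 6.16 and 6.32 on the null arrays. Its groups did not overlap, but the margin between wildtype replicate 3 and null replicate 3 was only 6.14 against 6.16, and the gene was not called (1.27 ± 0.38, adjusted p = 0.124). The other Robo4 probes were detected on no array and differed by 0.1, 0.02 and -0.04. Aplnr, the apelin receptor of sprouting and venous endothelium, read 4.57, 4.31, 5.15 and 5.35 on the wildtype arrays, with detection on 2 of 4, and 5.58, 6.51, 5.63 and 6.00 on the null arrays, all detected. The groups did not overlap here either (1.09 ± 0.27, 2.12-fold, adjusted p = 0.0878). Its ligand Apln was detected on 0 of 8 arrays, with values from 4.24 to 4.65. Ramp2, the partner protein that makes the calcitonin receptor-like receptor a receptor for adrenomedullin, read 9.41, 9.30, 9.71 and 9.80 on the wildtype and 9.71, 10.54, 10.48 and 11.01 on the null arrays. Null replicate 1 lay within the wildtype range and the other 3 above it (0.89 ± 0.25, adjusted p = 0.113).

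The remaining receptors did not separate. Calcrl, which encodes the receptor that Ramp2 partners, ranged from 5.55 to 5.92 in the wildtype and from 5.26 to 6.43 in the null (0.25 ± 0.23, adjusted p = 0.55). Flt1 (VEGF receptor 1) was at 4.50 on wildtype replicate 2, not detected, and between 5.49 and 6.34 on the other arrays (0.41 ± 0.34, adjusted p = 0.495). Eng (endoglin), an accessory receptor for TGF-beta family ligands, read 5.58, 5.55, 5.64 and 5.80 on the wildtype and 5.49, 6.19, 5.50 and 6.25 on the null arrays (0.22 ± 0.19, adjusted p = 0.532), so that null replicates 2 and 4 stood above all the others. Several receptors that define endothelium gave no signal that passed. Tie1 and Acvrl1 were detected on 0 of 8 arrays, Kdr, the main VEGF receptor, on 1 (a wildtype array), and the 3 probes of Flt4, the VEGF-C receptor, on 1, 1 and 0. A probe at background does not show that the transcript is absent.

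**Figure D2:**
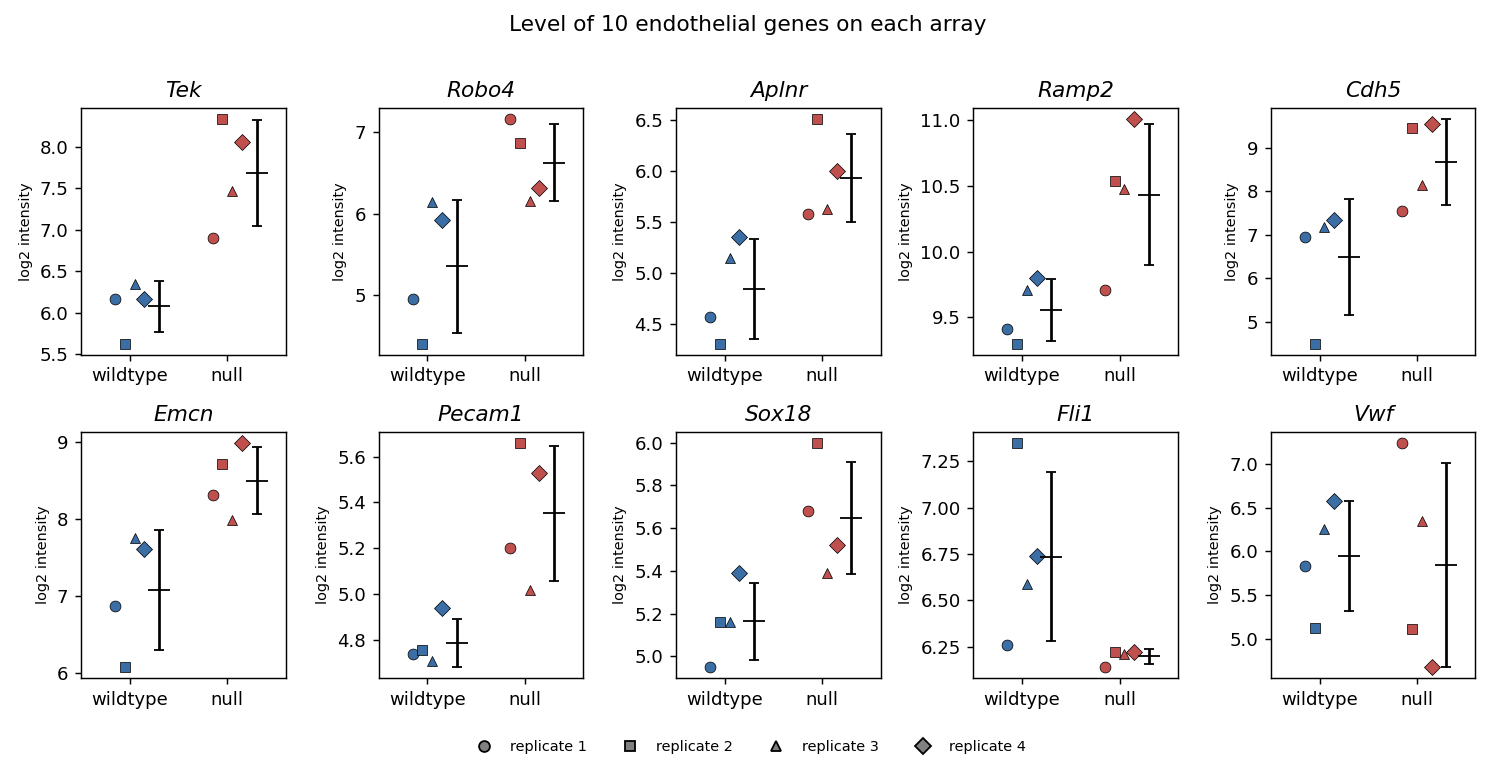
Level of 10 endothelial genes (y axis, log2 intensity, each panel on its own scale) on the 4 wildtype and 4 null arrays. Symbols tell the replicate numbers, which were not taken to pair the groups, and the bar gives the mean and SD. For Tek the null arrays start at 6.90 and the wildtype arrays end at 6.35, for Fli1 the order is turned, and for Vwf the groups overlap throughout.

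Among junction and surface genes, Cdh5 had the largest difference of the whole set. Cdh5 encodes VE-cadherin, the adhesion molecule of endothelial junctions, and read 6.96, 4.50, 7.18 and 7.34 on the wildtype and 7.55, 9.45, 8.15 and 9.55 on the null arrays. The groups did not overlap, wildtype replicate 2 was at background, and the null SD was 0.98. The difference of 2.18 ± 0.66 (4.53-fold) was not called (adjusted p = 0.125), and without wildtype replicate 2 it was 1.52. The second Cdh5 probe read 5.47, 4.43, 5.83 and 6.27 against 6.54, 7.41, 6.24 and 7.47, with the same arrays at the extremes and an overlap of 6.27 with 6.24 (1.42 ± 0.40, adjusted p = 0.114).

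Emcn, which encodes endomucin, a sialomucin of capillaries and veins, read 6.87, 6.08, 7.76 and 7.61 on the wildtype and 8.31, 8.71, 7.99 and 8.99 on the null arrays. Its groups did not overlap (1.42 ± 0.36, 2.67-fold, adjusted p = 0.0894). Pecam1 read 4.74, 4.76, 4.71 and 4.94 on the wildtype arrays, 1 of them detected, and 5.20, 5.66, 5.02 and 5.53 on the null arrays, all detected (0.57 ± 0.15, adjusted p = 0.103). The groups did not overlap, though the level stayed low for this main marker of endothelium. A second Pecam1 probe overlapped, with a difference of 0.17 ± 0.20 (adjusted p = 0.647). Cldn5, the claudin of endothelial tight junctions, showed a like change in detection, from 1 wildtype array to all 4 null arrays, at 4.38, 4.32, 4.76 and 5.74 against 6.07, 6.08, 5.66 and 5.17 (0.95 ± 0.32, adjusted p = 0.15).

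Icam2, an endothelial and platelet adhesion molecule, did not pass the filter and was not tested. It was detected on 0 of 4 wildtype and 3 of 4 null arrays, at 4.41, 4.32, 4.58 and 4.50 against 4.60, 5.50, 5.25 and 4.97, which is at least 1.14-fold higher in the null. That bound sets the null mean against the weakest detectable signal of the wildtype arrays. The other surface and matrix genes did not separate. Esam, Plvap, Egfl7 and Cd34 had differences of 0.46, 0.25, 0.15 and -0.10, with overlapping groups, and Clec14a was detected on 1 wildtype array. Vwf, the von Willebrand factor of endothelium, megakaryocytes and platelets, ran in another order, at 5.83, 5.13, 6.25 and 6.58 against 7.24, 5.12, 6.35 and 4.68 (-0.10 ± 0.53, adjusted p = 0.931). Null replicates 2 and 4, the highest arrays for Tek and Cdh5, were the lowest null arrays for Vwf.

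The transcription factors of endothelium were split. Sox18, a SOXF factor, read 4.95, 5.16, 5.16 and 5.39 on the wildtype and 5.68, 6.00, 5.39 and 5.52 on the null arrays, so that the groups met at 5.39 (0.48 ± 0.16, adjusted p = 0.14). Fli1, an ETS factor of endothelium and of several blood lineages, read 6.26, 7.35, 6.59 and 6.74 against 6.14, 6.22, 6.21 and 6.22. All null arrays lay below all wildtype arrays, and close together with an SD of 0.04 against 0.46 (-0.54 ± 0.20, 1.45-fold lower, adjusted p = 0.177). Wildtype replicate 2 set the size of this difference, which was -0.33 without it.

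Ets1, an ETS factor also made by mesenchyme, read 10.29, 10.30, 10.46 and 10.52 on the wildtype and 10.52, 10.04, 10.09 and 9.85 on the null arrays. Null replicate 1 was as high as the highest wildtype array and the other 3 were below all of them (-0.27 ± 0.15, adjusted p = 0.324, and -0.40 with adjusted p = 0.0473 without null replicate 1). Ets2, which is widely expressed, ranged from 11.37 to 11.80 and from 11.20 to 11.84 (0.05 ± 0.17). Sox7, another SOXF factor, read 4.42, 4.30, 5.22 and 5.12 against 5.55, 5.39, 4.57 and 4.85 with no separation (0.33 ± 0.27, adjusted p = 0.501). Erg and Sox17 were detected on 0 of 8 arrays by either of their probes, and Tal1 on 1 array of each genotype.

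Both lymphatic genes were measurable. Lyve1, a hyaluronan receptor of lymphatic endothelium and of some macrophages, read 5.26, 4.57, 6.00 and 7.04 on the wildtype and 6.85, 5.54, 6.58 and 5.50 on the null arrays (0.39 ± 0.51, adjusted p = 0.665). Prox1, the transcription factor that specifies lymphatic endothelium and is also active in neural and other precursors, read 5.03, 5.05, 5.67 and 5.16 against 5.87, 4.91, 5.86 and 5.13 (0.21 ± 0.25, adjusted p = 0.626). For both genes null replicates 1 and 3 were above null replicates 2 and 4, and the genotypes overlapped.

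**Figure D3:**
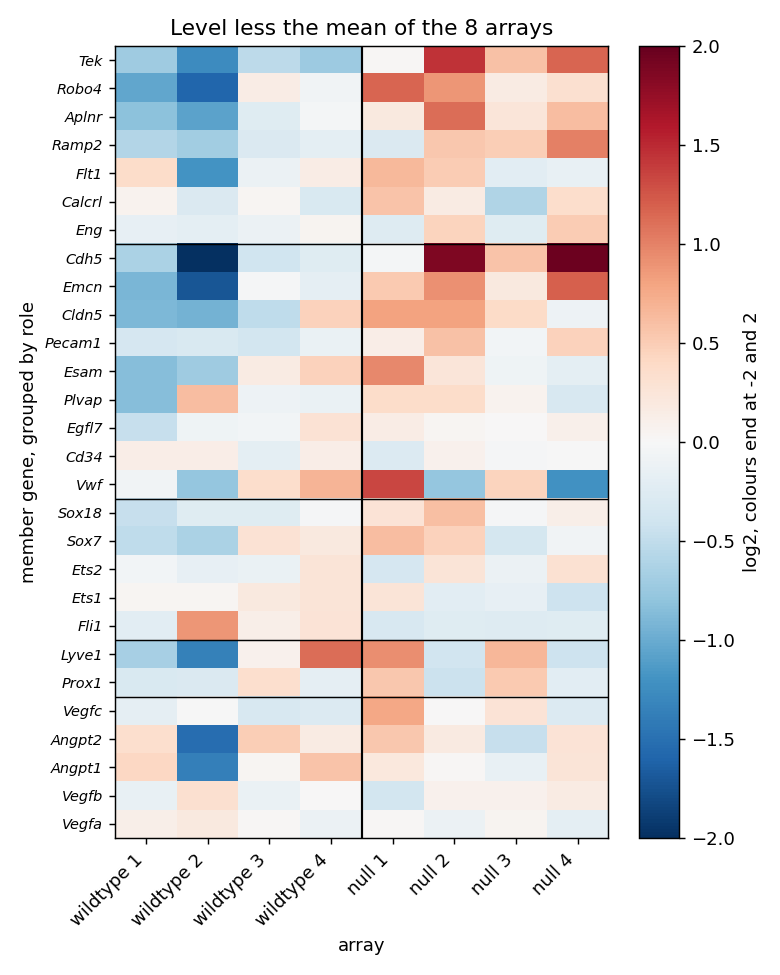
Level of each of the 28 genes on each of the 8 arrays, less the mean of that gene over the arrays (colour, log2, ending at -2 and 2, so that Cdh5 on wildtype replicate 2 is off the scale). Tek, Ramp2, Cdh5 and Emcn peak on null replicates 2 and 4, while Vwf, Lyve1 and Prox1 are highest among the null arrays on replicates 1 and 3. Robo4, Esam, Cldn5, Flt1, Sox7 and Sox18 are highest among the null arrays on replicates 1 and 2.

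The secreted growth factors had small differences between the genotypes, from -0.11 to 0.39. Of the 6, 0 were called and at an unadjusted p under 0.05 (limma) there were likewise 0 of the 5 tested, against 23.1% of all genes. Apln did not pass the filter. Vegfc, the ligand of the receptor encoded by Flt4 and a driver of lymphatic growth, read 8.95, 9.12, 8.81 and 8.86 on the wildtype and 9.91, 9.14, 9.40 and 8.86 on the null arrays. The first 3 null arrays lay above the wildtype range, and null replicate 4 was at the level of wildtype replicate 4 (0.39 ± 0.21, 1.31-fold, adjusted p = 0.294). The order of the null arrays for Vegfc, with replicate 1 the highest, was not that for Tek, where it was the lowest.

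Vegfa, the main attractant of endothelium, read 11.50, 11.57, 11.40 and 11.27 against 11.41, 11.26, 11.44 and 11.19 (-0.11 ± 0.12, adjusted p = 0.594). Its other probe had every null array below every wildtype array, at 8.37, 8.48, 8.39 and 8.56 against 8.33, 8.19, 8.36 and 7.89, with a small difference of -0.26 ± 0.13 (adjusted p = 0.278). Vegfb, a ligand of VEGF receptor 1, was level in both groups, at 10.15, 10.61, 10.16 and 10.30 against 9.93, 10.39, 10.38 and 10.46 (-0.01 ± 0.16, adjusted p = 0.968).

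The angiopoietins are the ligands of the Tek product. Angpt1, the agonist made by perivascular and mesenchymal cells, read 8.34, 6.56, 7.96 and 8.50 on the wildtype and 8.13, 7.95, 7.78 and 8.18 on the null arrays (0.17 ± 0.37, adjusted p = 0.805). Angpt2, which opposes it in many settings, read 9.74, 7.88, 9.90 and 9.57 against 9.95, 9.58, 8.94 and 9.67 (0.26 ± 0.41, adjusted p = 0.73). For both, wildtype replicate 2 was by far the lowest array, and without it the differences turned to -0.25 and -0.20. The receptor Tek thus differed by 1.61 while its ligands had differences of 0.17 and 0.26, with SE of 0.37 and 0.41; the difference between receptor and ligands was not tested.

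**Figure D4:**
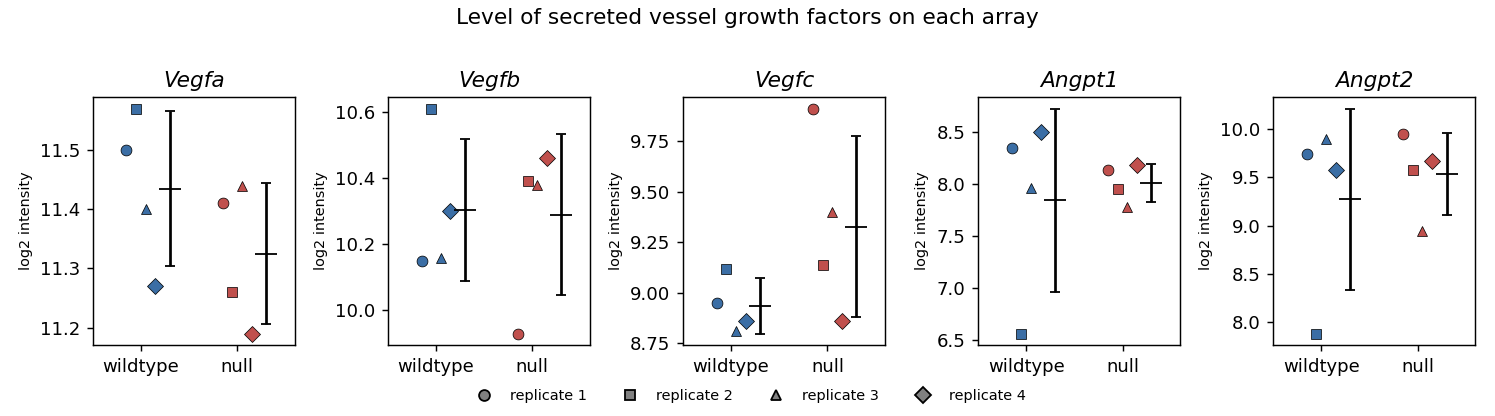
Level of the 5 secreted factors with a passing probe (y axis, log2 intensity, each panel on its own scale) on each array, with the mean and SD. The groups overlap in every panel, and wildtype replicate 2 is the low point for Angpt1 (6.56) and Angpt2 (7.88).

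Of 24 other genes of vascular signalling and vessel specification, 19 passed. None was called, and 3 reached an unadjusted p under 0.05 (limma), a smaller share than the 23.1% of all genes tested. Nrp1, a co-receptor for VEGF and semaphorins, ranged from 10.61 to 11.17 on the wildtype and read 11.54, 11.39, 11.17 and 11.39 on the null arrays, with no overlap before rounding (0.41 ± 0.15, adjusted p = 0.167). Its other probes had differences of 0.55 ± 0.12 (adjusted p = 0.0699, groups not overlapping) and 0.45 ± 0.31 (0.416). Ephb4, a receptor of venous endothelium, read 10.71, 10.58, 10.66 and 10.84 against 10.71, 11.34, 11.35 and 11.34 (0.49 ± 0.16, adjusted p = 0.145), with null replicate 1 inside the wildtype range, and further probes differed by 0.68 ± 0.21 (adjusted p = 0.125) and by -0.06 ± 0.11. Klf5, a zinc finger factor of smooth muscle and other tissues that the study discusses, read 9.16, 7.81, 8.96 and 9.15 against 9.03, 9.95, 9.10 and 9.82 (0.71 ± 0.33, adjusted p = 0.245), with null replicates 2 and 4 the highest.

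Of 9 genes that restrain vessel growth 7 passed and 0 were called. An unadjusted p under 0.05 (limma) was reached by 1 with a higher and 1 with a lower null mean, close to the 23.1% of all genes. Serpinf1, which encodes the anti-angiogenic factor PEDF, differed by 0.47 ± 0.15 (adjusted p = 0.139), with -0.48 for another probe, and Sema3a, a repellent that competes for neuropilin-1, by -0.48 ± 0.17 (adjusted p = 0.17). Among 9 genes of pericytes and smooth muscle, the cells that surround vessels, 7 passed and 0 were called, while 4 reached an unadjusted p under 0.05 (limma), where 23.1% of all genes did. Pdgfrb, the receptor that recruits pericytes, read 8.60, 8.36, 8.36 and 8.26 against 8.69, 9.02, 8.96 and 9.12, with no overlap (0.55 ± 0.13, adjusted p = 0.0808), and Kcnj8, a potassium channel subunit of pericytes, 4.78, 4.80, 5.50 and 5.17 against 5.49, 6.43, 5.54 and 6.24 (0.86 ± 0.25, adjusted p = 0.118). Pdgfrb is also made by sclerotome and fibroblasts. Cspg4, another pericyte gene, had a difference in the opposite direction (-0.46 ± 0.15, adjusted p = 0.137), and Rgs5, a defining pericyte marker, had no passing probe.

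Summed levels separated by genotype for some lists and overlapped for others. Summed over the passing genes of a list on the linear scale, the 7 receptors gave 836 to 1220 in the wildtype and 1360 to 2670 in the null. Ramp2 alone, whose groups overlapped, made up 61.5% to 77.4% of that sum, and the other 6 receptors gave 208 to 344 and 426 to 742. Over all 23 passing endothelial markers the sums overlapped, at 5840 to 7930 and 7080 to 9530. Ets2, widely expressed, and Ets1, also made by mesenchyme, weigh heavily in this sum, which says little of the dimmer markers. Their means were 11.51 and 10.39 in the wildtype and 11.56 and 10.12 in the null. The sums of the transcription factors, where both again weigh heavily, also overlapped (4130 to 5210 and 3960 to 4770). Those of the lymphatic genes did too (56.9 to 168 and 76.6 to 174). The secreted factors overlapped as well (5320 to 5710 and 5310 to 5930). Those of the 9 junction and surface genes did not overlap, at 813 to 1330 and 1360 to 2040. The neuron list separated in the same direction, from 349 to 969 against 1310 to 2220, with 6 of 6 passing genes higher on average, of which Dcx (1.57, adjusted p = 0.052) and Nefm (1.17, adjusted p = 0.1) had the smallest p by the brightest probe. Other probes of Dcx (1.53, adjusted p = 0.0496) and Elavl3 (1.13, adjusted p = 0.0155), an RNA-binding protein of neurons, were called. Its members Tubb3, Nefl and Snap25 had no passing probe. The pericyte list gave 2830 to 3600 against 3760 to 5740. Its brightest gene, Acta2, had overlapping groups, with means of 10.82 in the wildtype and 11.39 in the null. The skeletal muscle sums overlapped, at 612 to 1200 against 1160 to 3030. There Actc1 (1.31, adjusted p = 0.14) and Acta1 (0.92, adjusted p = 0.148) had the smallest p of 8 genes. Cartilage and sclerotome genes separated the other way, with 33400 to 39500 against 17800 to 22200. Of those 12 genes 11 had a lower null mean. Called lower were 7 (Sox5, Sox9, Col2a1, Acan, Col9a1, Pax1 and Uncx), against 0.447% of all genes tested, and Nkx3-2 was called higher.

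Blood lineages did not separate by genotype. The erythroid list gave 857 to 6600 in the wildtype and 1140 to 1840 in the null, with wildtype replicate 4 the highest, and its genes of smallest p were Klf1 (-0.28) and Epor (-0.36). The macrophage and leukocyte list gave 266 to 1250 and 467 to 1210, with Ptprc and Spi1 below the filter, and Tyrobp (0.18) and Aif1 (-0.12) had the smallest p. The platelet and megakaryocyte list spread most, over 758 to 3140 and 318 to 7070. Its gene Pf4, platelet factor 4, read 11.15, 9.09, 11.30 and 11.08 on the wildtype and 12.57, 7.92, 10.94 and 7.61 on the null arrays, and Ppbp differed by -1.20 ± 1.02 (adjusted p = 0.509). Within the null group, Pf4 thus was high on replicates 1 and 3, like Vwf, Lyve1 and Prox1, whereas Tek, Cdh5 and Ramp2 were highest on replicates 2 and 4. The endothelial markers did not share 1 order, since Robo4, Esam, Cldn5, Flt1, Sox7 and Sox18 were highest on null replicates 1 and 2. Nkx3-2 read 5.45, 7.49, 6.59 and 7.55 on the null arrays, with replicates 2 and 4 highest, as for Tek. The part of neural, muscle, mural or blood cells in the endothelial values was not tested.

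A further null array was at hand in the authors' table of log2 values, which shares 7 arrays with the intensity table and holds 1 null array that the intensity table lacks. There a value is the log2 of intensity floored at 1, centred on the array and less a baseline for each probe, so low signals reach far below 0. On this scale Tek read -0.78, -1.64, -0.62 and -0.95 on the wildtype arrays and 0.92 on the further null array. Emcn read -1.17, -2.24, -0.25 and -0.44 against 0.79, and Cdh5 -1.15, -6.15, -0.95 and -0.83 against 0.54. The further array was above all 4 wildtype arrays for these genes and for Robo4 (0.49), Aplnr (0.11), Pecam1 (0.65), Sox18 (0.00) and Ramp2 (0.06), and Icam2, below the filter elsewhere, read 0.56 against -3.93 to -1.27.

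In all it lay above every wildtype array for 13 of the 23 endothelial markers (56.5%) and for 21.0% of all genes tested, and below for 2, Fli1 (-0.90) and Ets1 (-0.21), against 23.1% of all genes tested. The 13 include the 7 markers whose other null arrays all exceeded these same wildtype arrays. Of all 614 genes with that property 73.9% lay above on this array, so the 21.0% is no yardstick for those 7. Among the secreted factors Vegfc was above all wildtype arrays (0.48) and Vegfa below them (-0.19), by 0.63 and -0.32 from the wildtype mean, while Vegfb, Angpt1 and Angpt2 lay within the wildtype range. With this array added to the others on that scale, 5 null against 4 wildtype, Tek differed by 2.01 (limma, adjusted p = 0.0775) and 0 of the 28 genes were called, in a fit chosen after seeing the data.

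**Figure D5:**
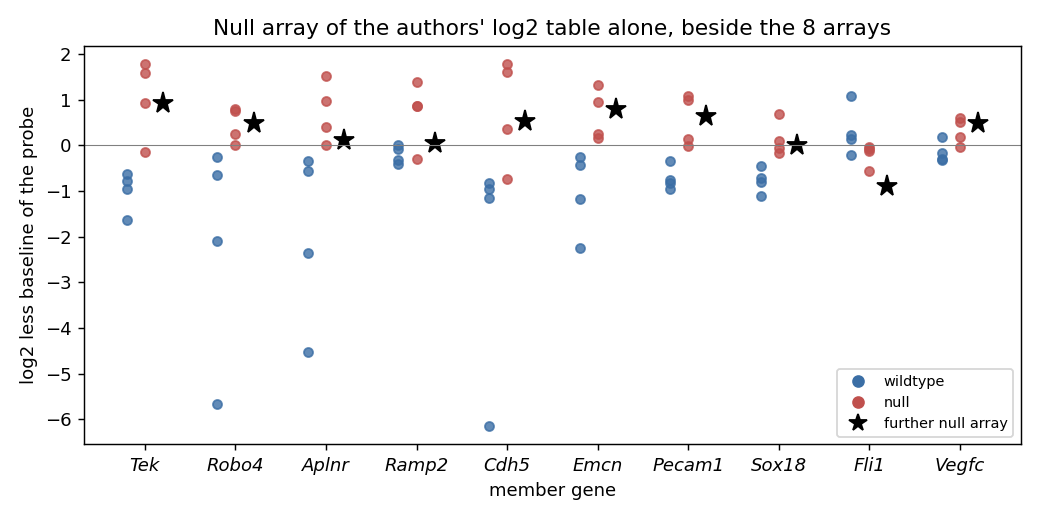
Values of 10 genes on the scale of the authors' log2 table (y axis, log2 of floored and centred intensity less a baseline of the probe), with the 4 wildtype arrays, the 4 null arrays of the intensity table and the further null array (star). The star stands above all wildtype points except for Fli1, where it stands below them.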

How the data were processed

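Cells from E12.5 vertebral columns were profiled on 8 Illumina mouse arrays, 4 wildtype and 4 null, grouped by the sample labels. The deposited intensity values are those the authors exported from GenomeStudio (version not given in the sources used here) after background subtraction. They are linear, and 28% to 31.4% of them per array are below 0. The deposited detection p-value of each is near 1 for bright probes and was subtracted from 1. A deposited table of log2 values, centred per array and less a baseline per probe that is not explained in the sources used here, has 7 arrays in common with the first. Its null replicates 2 to 4 are null replicates 1 to 3 of the intensity table, whose numbers are used in the text. Probes of the intensity table were named by matching values to the log2 table (35665 of 45281, 78.76%, tolerance 0.001 on the log2 scale), and genes came from the platform annotation. Of 65 probes annotated to the 39 genes, 55 were matched and 33 passed the filter.

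Intensities were corrected by normexp with controls inferred from detection p, offset 16, and quantile normalized (limma 3.58.1, R 4.3.3, statmod 1.5.0). Probes were tested where 4 or more of the 8 arrays had a detection p under 0.05, with lmFit and eBayes, with Benjamini-Hochberg adjustment over all 19965. The labels do not say that arrays came from separate animals, although the methods call them biological replicates, so p-values measure only the spread between these arrays. Where 0 arrays of a group detected a probe, its fold is a lower bound: the dim group's level on each array was replaced by the weakest detected signal of that array if this was higher. On simulated data for this comparison with 19965 probes, 24%, 68%, 96% and 100% of probes changed 1.5-, 2-, 4- and 8-fold were called. The changed probes were drawn at random from all those tested, with independent noise and no outlying arrays. The rates need not hold for markers with a wide spread, such as Cdh5 (SD 1.34 in the wildtype and 0.98 in the null). Python 3.11.15, pandas 2.3.3 and matplotlib 3.10.9 were used for tables and figures.

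Values on every array are given for members that were called or whose groups did not overlap, for up to 4 members of smallest p in each role, for Vegfc and Emcn and for the passing secreted factors; of other lists, called genes or the 2 of smallest p, with Nrp1 and Klf5. Some receptor and surface genes outside that rule, Vwf, Eng, Icam2 and the second probes among them, were added after their values were seen. The members and lists were chosen with earlier results of these data known. Alternatives were another floor, scaling, offset or filter, the authors' log2 values, a replicate block, array weights, a one-way analysis of variance, the mean of a gene's probes and each array left out.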

Additional observations from a re-analysis of the deposited data

Results flagged for a closer look

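In 4 cases Dixon's test, which sets a gap against the range of the group, marked 1 array as apart from the other 3. In all 38 groups were examined, of which chance marks about 1 in 20. They were Cdh5 on wildtype replicate 2 (4.50), Angpt2 on wildtype replicate 2 (7.88), Fli1 on null replicate 1 (6.14) and Vegfb on null replicate 1 (9.93). For Fli1 the gap was small, since the other null arrays read 6.21 to 6.22.

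The null array held only by the authors' log2 table enters none of the main comparisons. On it, 7 endothelial markers whose null arrays all exceeded the wildtype arrays in the intensity table again lay above all 4 wildtype arrays, at 0.92 (Tek), 0.79 (Emcn), 0.00 (Sox18), 0.11 (Aplnr), 0.54 (Cdh5), 0.49 (Robo4) and 0.65 (Pecam1) on the scale of that table. These genes were picked on the same wildtype arrays, and of all 614 genes picked in that way 73.9% also lay above them on this array. It is 1 array, and no test was made on it alone.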

How the results depend on the processing

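The number of probes called was 156 and of genes of the set called 1 (Tek, limma). The respective numbers were 102 and 0 with a floor of 16, 75 and 0 without a filter, 1 and 0 when arrays were scaled by the median absolute deviation, 16 and 0 in the authors' log2 values and 12 and 0 with a one-way analysis of variance. They were 6190 and 10 with array weights and 69 and 0 with the further null array, a fit chosen after seeing the data, and 0 genes of the set were called with a 20th percentile filter. Leaving out arrays gave 21 to 4048 probes and 0 to 7 genes of the set. The deviations of arrays with the same replicate number correlated at -0.195 to 0.036, which gave no sign of pairing but cannot exclude it. With the replicate number as a block 20 probes and 0 genes of the set were called. The median difference of the endothelial markers, 0.39, was 0.87 in the authors' log2 values, 0.77 with the further null array, 0.21 with an offset of 50, 0.23 with a 20th percentile filter and with array weights, 0.25 without a filter and 0.12 to 0.52 with arrays left out. That of the secreted factors, 0.17, was 0.50 with median centring, -0.25 with scaling by the median absolute deviation, 0.27 in the authors' log2 values, -0.06 with array weights, 0.35 with the further null array and -0.10 to 0.36 with arrays left out. Median centring, and likewise scaling by the median absolute deviation, moved the median of all probes from -0.04 to 0.19 and -0.26. The direction turned for Vegfa (0.05) and Vegfb (0.22) with median centring, for Vegfc (-0.09), Angpt1 (-0.07) and Angpt2 (-0.25) when arrays were scaled by the median absolute deviation, and for Lyve1 (-0.27), Prox1 (-0.19), Vegfb (0.17), Angpt1 (-0.06) and Angpt2 (-0.08) with array weights. With arrays left out Lyve1 ranged over -0.23 to 0.84, Vegfb over -0.07 to 0.21, Angpt1 over -0.29 to 0.39 and Angpt2 over -0.34 to 0.47. The causes were not tested. Tek, Robo4, Aplnr, Ramp2, Pecam1, Cdh5, Emcn, Cldn5 and Sox18 stayed higher, and Fli1 and Ets1 lower, in the null under every alternative run; Aplnr and Cldn5 gave no value with a 20th percentile filter. With 4 arrays a group, 24% of simulated 1.5-fold changes were called, and markers at the background, such as Kdr, Tie1, Erg and Sox17, could not be compared.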
